A study of Mus musculus with 14 samples.

Results

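The satellite cell and myogenic regulators are a set of 10 genes, chosen by symbol, out of 55416 genes measured in each library. They are the paired-box factors Pax7 and Pax3, the 4 myogenic factors Myf5, Myod1, Myog and Myf6, the surface proteins Cdh15, Chodl and Notch3, and the transcription factor Runx1. All 10 were found by their mouse gene identifiers. RNA was sequenced from gastrocnemius, a calf muscle, and from lung of C57BL/6 (C57BL/6NCrlOri) males, in a model where cells of the KrasIKKaL line are given intratracheally at 6 to 8 weeks of age and in a study that sought targets against cachexia and against immune-related adverse events of muscle. Its libraries are 3 muscle libraries titled TB, read here as tumour-bearing, 3 muscle libraries titled CON, read as control, 5 lung TB libraries and 3 lung CON libraries. The labels do not say what the CON mice received or whether the libraries of a group are separate animals. P-values therefore reflect the spread among the libraries at hand, and part of that spread could be technical. The labels name 1 injected line and no mouse genotype or drug.

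Satellite cells are the stem cells of skeletal muscle. They lie between a fibre and its basal lamina, express Pax7, and stay quiescent under Notch signalling until injury or growth calls on them. Activated cells then pass through Myf5 and Myod1 to Myog, which switches on differentiation, while Myf6 is the myogenic factor that mature fibres go on expressing. Fibres also express some of these genes themselves, and in mouse muscle Runx1 is known for its rise after denervation.

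Promoter sequence is shown for 4 of the members that changed in muscle, so that the letters around their starts can be read beside the values. Each line holds the 250 bases before a RefSeq start in build GRCm38.p6, 5′ to 3′ on the gene's own strand. Capitals mark an E-box, CANNTG, the core that the myogenic factors bind, or a RUNX core, TGTGGT, on either strand. Pax7 is at chr4:139832969-139833218 (minus strand), Chodl at chr16:78930698-78930947 (plus), Cdh15 at chr8:122848124-122848373 (plus), and the upstream and downstream starts of Runx1 at chr16:92826075-92826324 and chr16:92697330-92697579 (both minus).
Pax7: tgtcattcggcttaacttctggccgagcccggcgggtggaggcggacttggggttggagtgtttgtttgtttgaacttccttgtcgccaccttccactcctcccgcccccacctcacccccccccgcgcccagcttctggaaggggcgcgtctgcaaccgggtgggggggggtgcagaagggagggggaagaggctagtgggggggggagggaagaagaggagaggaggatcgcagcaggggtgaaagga
Chodl: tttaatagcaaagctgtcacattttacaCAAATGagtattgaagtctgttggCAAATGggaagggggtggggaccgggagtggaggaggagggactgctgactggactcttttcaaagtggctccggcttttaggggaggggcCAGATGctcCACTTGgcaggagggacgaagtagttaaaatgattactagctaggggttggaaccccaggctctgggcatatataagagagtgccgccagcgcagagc
Cdh15: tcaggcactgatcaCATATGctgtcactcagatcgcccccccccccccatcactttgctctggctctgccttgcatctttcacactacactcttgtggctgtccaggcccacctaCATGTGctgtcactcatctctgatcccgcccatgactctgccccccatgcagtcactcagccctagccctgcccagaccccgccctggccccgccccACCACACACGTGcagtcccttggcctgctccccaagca
Runx1 upstream start: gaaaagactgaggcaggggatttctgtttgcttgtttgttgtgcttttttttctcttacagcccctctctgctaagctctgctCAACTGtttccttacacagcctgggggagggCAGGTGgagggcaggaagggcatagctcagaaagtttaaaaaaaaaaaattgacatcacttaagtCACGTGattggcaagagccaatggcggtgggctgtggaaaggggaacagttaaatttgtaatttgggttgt
Runx1 downstream start: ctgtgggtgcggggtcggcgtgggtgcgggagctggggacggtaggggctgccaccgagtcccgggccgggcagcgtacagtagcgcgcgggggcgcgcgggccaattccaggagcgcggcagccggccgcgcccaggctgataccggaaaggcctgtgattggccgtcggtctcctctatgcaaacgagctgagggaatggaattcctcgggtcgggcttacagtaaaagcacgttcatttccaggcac

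RefSeq windows were matched for 7 of the 10 members, 8 windows in all, and none was matched for Pax3, Myf6 and Myod1. An E-box was present in 4 of the 8 windows, against 66.2% of 32851 mouse promoter windows of the same length. Chodl held 4 E-boxes, Cdh15 and the upstream start of Runx1 held 3 each, and Myog held 2, while Pax7, Notch3, Myf5 and the downstream start of Runx1 held none. The RUNX core was present in 2 of the 8 windows, those of Cdh15 and Myf5, against 14% of all windows. In Cdh15 the RUNX core stands on the reverse strand as ACCACA and runs directly into an E-box, in the stretch ACCACACACGTG. The RBPJ core TGGGAA, through which Notch acts, was found in 1 window, that of Chodl, against 21.6% of all windows. The FOXO core GTAAACA (3.17% of all windows) and the E-box form CAGCTG (13.0%) were found in none of the 8. Matches are letters only and were not tied to binding or to any change in expression.

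In muscle, the set moved in both directions. Cdh15 and Runx1 rose and Pax7, Chodl and Notch3 fell in the TB libraries, and the 4 myogenic factors did not pass the test. Of the 10 members, 9 passed the filter on low counts and 5 of these were called at an adjusted p below 0.05 (edgeR quasi-likelihood test, Benjamini-Hochberg over 14373 genes), 2 higher and 3 lower. Over all genes tested in muscle, 15.3% were called, 8.53% higher and 6.75% lower. The members were chosen with earlier results of these data known, so their count is no independent test against that share. In CPM, groups did not overlap for 6 of the 9 members tested, the 5 called and Myod1, against 43.1% of all genes tested (21.1% with TB higher and 22.0% with TB lower). Log2 fold changes are TB over CON, and their median was -0.03 over all genes tested and -0.56 over the 9 members. In 4 of the 5 called members (Pax7, Chodl, Cdh15 and Runx1), TB library 2 lay nearest to the CON mean. The share of all called genes with TB library 2 nearest was not computed, so this count is not read as a trait of the set.

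**Figure D1:**
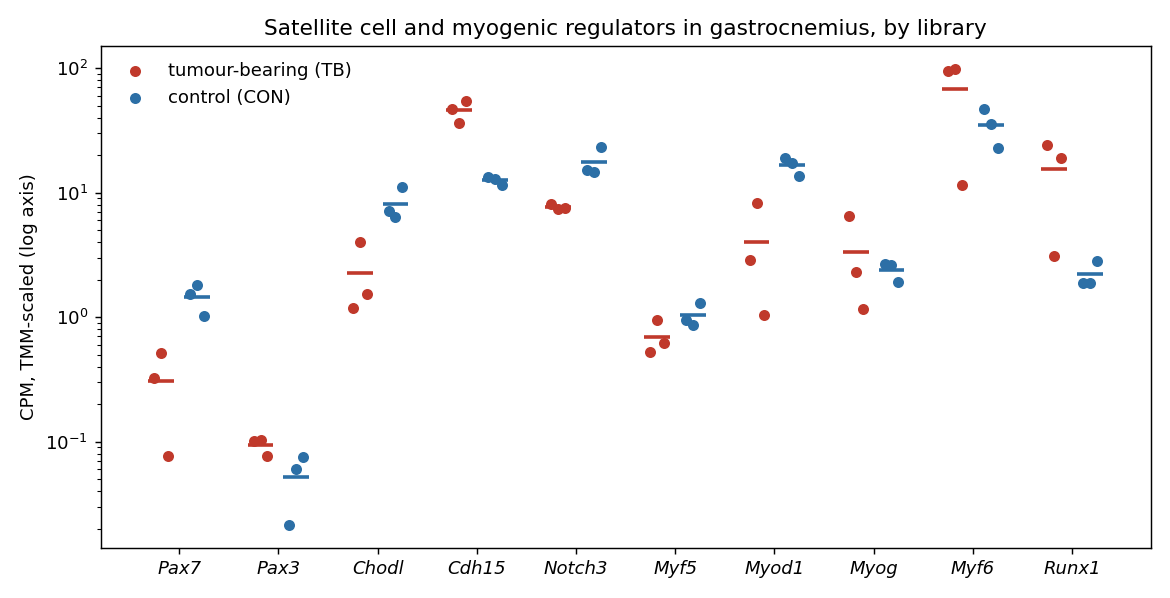
Each point is 1 gastrocnemius library, in CPM (counts scaled by TMM to a common library size) on a log axis, with TB left of CON for each of the 10 genes, libraries 1 to 3 of a group left to right, and a bar at each group's mean. The TB points of Pax7, Chodl, Notch3 and Myod1 lie below all CON points, and those of Cdh15 and Runx1 lie above them. TB library 3 is the lowest of the 6 for Myf6, Myog, Myod1 and Pax7. For the same genes CON library 3 is the lowest of the CON libraries.

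Pax7, the paired-box factor that marks satellite cells, had 0.324, 0.515 and 0.0772 CPM in the TB libraries, against 1.53, 1.83 and 1.03 CPM in the CON libraries. These values rest on 16, 20 and 2 counts in TB and 71, 61 and 27 counts in CON. All 3 TB libraries lay below all 3 CON libraries, and 2 of the TB and all 3 of the CON libraries reached the level of the low-count filter. Pax7 averaged 0.305 ± 0.219 CPM in TB and 1.46 ± 0.405 CPM in CON muscle (SD, n = 3 each), a log2 fold change of -2.20 (SE 0.59, adjusted p = 0.0400 by edgeR). The call was lost without CON library 1, 2 or 3 (adjusted p = 0.110, 0.148 and 0.103), without TB library 1 or 3 (0.0838 and 0.0582) and by limma on log2(TPM + 1) (0.168), where TPM is a level corrected for transcript length. Pax7 was at 0.01 to 0.27 TPM in these libraries, so adding 1 before the log leaves little change to test in that last fit.

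Pax3, the close relative of Pax7 that drives muscle precursors in the embryo, had 5, 4 and 2 counts in the TB libraries and 1, 2 and 2 counts in the CON libraries. It did not pass the filter and was not tested. A count of 0 in a muscle library allows up to 3 counts, 0.0679 to 0.0924 CPM of the total counts, without TMM scaling. By its counts Pax3 was near that limit in every muscle library. Such limits cover counting error only.

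Chodl, a membrane protein with a C-type lectin fold, had 1.18, 4.04 and 1.54 CPM in the TB libraries, against 7.09, 6.35 and 11.1 CPM in the CON libraries. The groups did not overlap, and TB library 2 came closest to CON. Its means were 2.25 ± 1.56 CPM in TB and 8.18 ± 2.55 CPM in CON (SD, n = 3 each), a log2 fold change of -1.86 (SE 0.49, adjusted p = 0.0375 by edgeR). The call was lost without CON library 1, 2 or 3 (adjusted p = 0.0849, 0.0899 and 0.142), without TB library 1 or 3 (0.0760 and 0.0895) and by limma on log2(TPM + 1) (0.123).

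Cdh15, M-cadherin, which joins satellite cells to their fibre, went the other way. It had 47.2, 36.6 and 54.7 CPM in the TB libraries, against 13.3, 12.9 and 11.6 CPM in the CON libraries. The lowest TB library lay far above the highest CON library. Means were 46.2 ± 9.12 CPM in TB and 12.6 ± 0.913 CPM in CON (SD, n = 3 each), a log2 fold change of 1.88 (SE 0.27, adjusted p = 0.00774 by edgeR), or 3.67-fold higher. The call was lost without CON library 2 or 3 (adjusted p = 0.0561 and 0.0594), by limma on log2(TPM + 1) (0.0604) and in the fit of all 14 libraries (0.209).

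Notch3, a Notch receptor of satellite cells and of the smooth muscle and pericytes of vessels, had 8.11, 7.46 and 7.53 CPM in the TB libraries, against 15.1, 14.5 and 23.2 CPM in the CON libraries. The 3 TB values were close together and all below CON, whose library 3 stood above its other two. Means were 7.70 ± 0.358 CPM in TB and 17.6 ± 4.84 CPM in CON (SD, n = 3 each), a log2 fold change of -1.19 (SE 0.28, adjusted p = 0.0274 by edgeR). The call was lost without CON library 1, 2 or 3 (adjusted p = 0.0762, 0.0914 and 0.118), without TB library 3 (0.0620) and by limma on log2(TPM + 1) (0.272). Of 9 pericyte and smooth muscle markers, 1 fell, Cspg4 (-1.82, SE 0.34, adjusted p = 0.0161), and the rest did not pass. Their summed level was 295 to 463 CPM in TB and 316 to 412 CPM in CON, and their part in the Notch3 result was not tested.

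Counts of 2 genes of the set can be set against each other within a library, which cancels the library's depth. These ratios were picked after the values were seen and carry no test. For each Pax7 count there were 146, 71.1 and 709 Cdh15 counts in the TB libraries, against 8.72, 7.05 and 11.3 in the CON libraries. For each Notch3 count there were 5.82, 4.90 and 7.27 Cdh15 counts in TB, against 0.881, 0.887 and 0.498 in CON. Both ratios were higher in every TB library than in any CON library. This was fixed in advance, since in every TB library Cdh15 lay above, and Pax7 and Notch3 below, all CON libraries. The ratio of 709, in TB library 3, rests on 2 Pax7 counts. In bulk RNA, fewer cells of a type and less RNA per cell cannot be told apart.

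Among the myogenic factors, Myod1, which commits cells to the muscle lineage, had 2.88, 8.23 and 1.04 CPM in the TB libraries, against 18.9, 17.3 and 13.5 CPM in the CON libraries. In CPM the groups did not overlap, with counts of 142, 320 and 27 in TB and 878, 577 and 355 in CON. In TPM they overlapped by a little, at 4.13 TPM in TB library 2 and 4.1 TPM in CON library 3. Means were 4.05 ± 3.74 CPM in TB and 16.6 ± 2.76 CPM in CON (SD, n = 3 each). The log2 fold change of -2.02 (SE 0.61) missed the threshold by edgeR, at an adjusted p of 0.0527. It passed by DESeq2 (adjusted p = 0.00462), by limma-voom (0.0292), with no filter (8.6e-06) and in the fit of all 14 libraries (0.0463). It also passed with the replicate number as a block, and without TB library 2, the TB library with the most Myod1 (log2 fold change -3.02, 0.00626). In the other 9 of 15 alternatives it did not pass, with an adjusted p of up to 0.133 by edgeR.

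Myf6, the factor of mature fibres, had 94.1, 99.0 and 11.6 CPM in the TB libraries, against 47.0, 35.6 and 23.0 CPM in the CON libraries. In TB, 2 libraries lay above all CON libraries and library 3 lay below them. The means of 68.2 ± 49.1 CPM in TB and 35.2 ± 12.0 CPM in CON (SD, n = 3 each) gave a log2 fold change of 0.96 (SE 0.65, adjusted p = 0.310 by edgeR). Without TB library 3 it was 1.47, with an adjusted p of 0.0469, and with no filter the adjusted p was 0.0342.

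Myog, the differentiation factor, had 6.49, 2.29 and 1.16 CPM in the TB libraries, against 2.69, 2.64 and 1.90 CPM in the CON libraries. TB library 1 was the highest of the 6 and TB library 3 the lowest. The log2 fold change was 0.47 (SE 0.56, adjusted p = 0.564 by edgeR), and without TB library 1 it was -0.46. Myf5, the earliest of the 4 factors in development, had 0.527, 0.952 and 0.618 CPM in the TB libraries, against 0.946, 0.869 and 1.29 CPM in the CON libraries. The groups overlapped, and the log2 fold change was -0.56 (SE 0.43, adjusted p = 0.367 by edgeR).

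The make-up of the 4 factors was read as shares of their summed TPM. That sum was 97.9, 84.2 and 6.74 in the TB libraries, against 57.7, 31.6 and 16.1 in the CON libraries, with TB on both sides of CON. Myf6 made up 92.7%, 92.8% and 85.6% of that sum in TB, against 76.0%, 72.2% and 67.7% in CON. Myod1 made up 1.81%, 4.91% and 4.90% in TB, against 19.6%, 22.4% and 25.5% in CON. Neither share overlapped between the groups, with the Myf6 share higher in every TB library and the Myod1 share lower. The 4 shares add up to the whole and Myf6 and Myod1 made up most of it. A lower Myod1 share therefore goes with a higher Myf6 share, and they are not 2 separate results. The level of Myf6 was not higher in every TB library, as TB library 3, at 5.77 TPM, was the lowest of the 6. As counts, there were 32.7, 12.0 and 11.1 Myf6 counts for each Myod1 count in TB, against 2.49, 2.06 and 1.70 in CON. Myog made up 5.23%, 1.76% and 6.97% in TB, against 3.57%, 4.4% and 4.6% in CON, and Myf5 0.296%, 0.499% and 2.52% in TB, against 0.866%, 0.981% and 2.18% in CON. TB library 3, which had the lowest summed TPM of the 6, had Myf6 and Myod1 shares on the TB side and the highest shares of Myog and Myf5. These shares were chosen after the values were seen and were not tested.

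**Figure D2:**
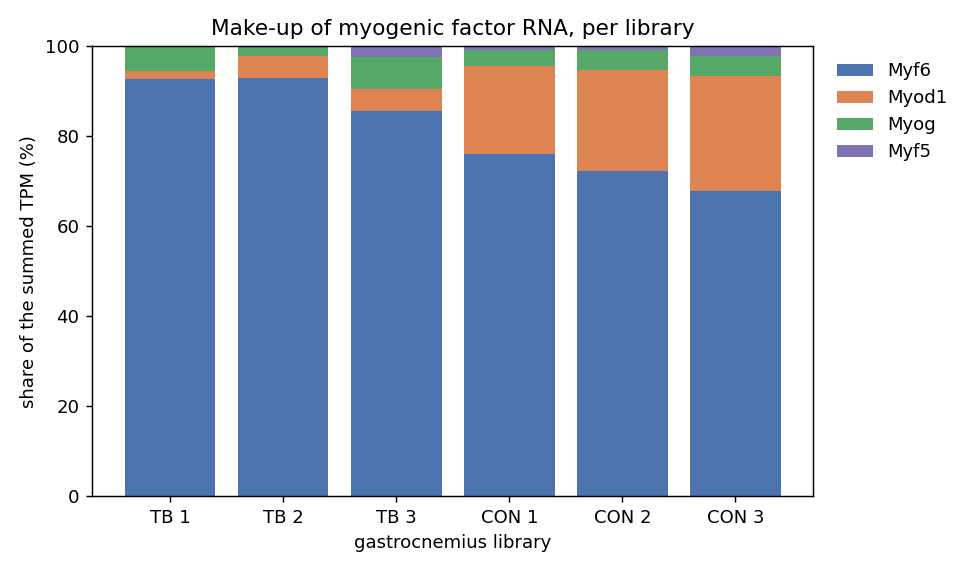
Stacked bars give the share of the summed TPM of Myf6, Myod1, Myog and Myf5 in each gastrocnemius library, TB libraries left of CON libraries. Myod1 is 1.81% to 4.91% in the TB bars and 19.6% to 25.5% in the CON bars.

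Runx1, a DNA-binding factor that pairs with Cbfb, had 24.2, 3.09 and 19.1 CPM in the TB libraries, against 1.89, 1.89 and 2.85 CPM in the CON libraries. TB libraries 1 and 3 lay far above CON, and TB library 2 lay just above the highest CON library. Counts were 1195, 120 and 496 in TB and 88, 63 and 75 in CON. Means were 15.5 ± 11.0 CPM in TB and 2.21 ± 0.555 CPM in CON (SD, n = 3 each), a log2 fold change of 2.81 (SE 0.65, adjusted p = 0.0263 by edgeR). The call was lost without CON library 1, 2 or 3 (adjusted p = 0.0871, 0.0951 and 0.0971), without TB library 1 or 3 (0.0633 and 0.0630), by limma-voom (0.0615) and by limma on log2(TPM + 1) (0.115).

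The length of Runx1 RNA differed as well as its level. RSEM lists for each gene the mean length of its transcripts, weighted by their estimated abundance, and for Runx1 this was 2943, 5588 and 3259 bases in the TB libraries, against 5547, 5440 and 5615 bases in the CON libraries. TB libraries 1 and 3, which had the most Runx1, had the short lengths, and TB library 2 was within the CON range. The TB mean was 0.710 of the CON mean. A ratio as low was seen in 233 of the 12227 genes tested with at least 2 transcripts (1.91%), and the ratio was 1.00 in Pax7, Chodl and Notch3, the other called members with several transcripts. TPM divides by length and is scaled otherwise than CPM, and Runx1 differed more in it: means were 4.26 TPM in TB and 0.29 TPM in CON, a ratio of 14.7, against a ratio of 7.01 between the CPM means. The 7 annotated Runx1 transcripts run between 336 and 5861 bases, and the gene tables do not give which of them made up the sum.

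**Figure D3:**
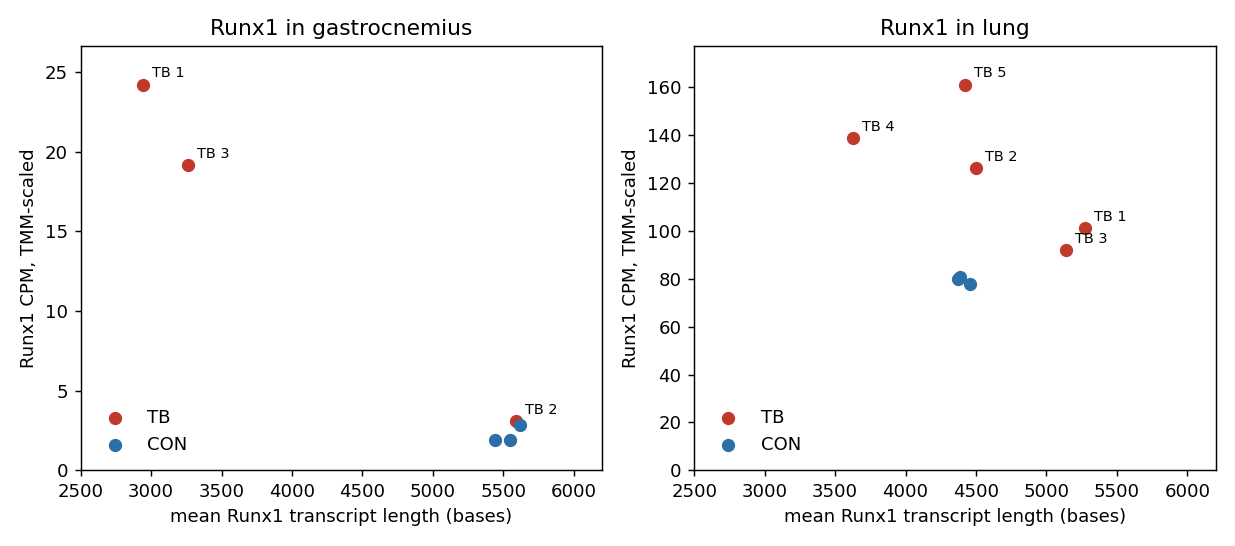
Each point is 1 library, with the mean Runx1 transcript length in bases on the horizontal axis and Runx1 CPM on the vertical axis, gastrocnemius on the left and lung on the right, and TB libraries numbered. In gastrocnemius, TB 1 and TB 3 lie at 2943 and 3259 bases and the other libraries at 5440 to 5615 bases, while in lung the CON libraries lie at 4373 to 4454 bases and the TB libraries on both sides of them.

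In each muscle group the order of TPM levels was read from the most to the least abundant. In TB muscle it ran Myf6 (58.2 ± 45.8 TPM), Cdh15 (11.7 ± 3.52), Runx1 (4.26 ± 4.35), Myog (2.36 ± 2.45), Myod1 (2.08 ± 1.92), Notch3 (0.787 ± 0.275), Chodl (0.770 ± 0.586), Myf5 (0.293 ± 0.125), Pax7 (0.050 ± 0.036) and Pax3 (0.020 ± 0.010), as mean TPM ± SD with n = 3. In CON muscle it ran Myf6 (25.9 ± 16.7 TPM), Myod1 (7.49 ± 3.61), Cdh15 (3.04 ± 1.22), Chodl (2.44 ± 0.601), Notch3 (1.56 ± 0.330), Myog (1.40 ± 0.660), Myf5 (0.387 ± 0.100), Runx1 (0.29 ± 0.053), Pax7 (0.193 ± 0.093) and Pax3 (0.010), again with n = 3. Myf6 was the most abundant in both groups and Pax3 the least. Neighbours in the order had ranges that did not overlap only between Cdh15 and Runx1 and between Myf5 and Pax7 in TB, and between Myog and Myf5 and between Pax7 and Pax3 in CON.

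The genes most like 4 of the members across the 6 muscle libraries were found by the smallest root mean square difference of centred log2 CPM. The closest to Pax7 were Hdac9, Aurka and P2ry1, at differences of 0.213, 0.229 and 0.243. Closest to Myod1 were Asb18, Tm6sf1 and Fgf11 (0.186, 0.239 and 0.253). Among the closest to Notch3 were Bmp5 and Fchsd1 (0.0963 and 0.114), and closest to Runx1 were Gpnmb, Gm7367 and Hmgb2 (0.146, 0.202 and 0.232). All of these points share libraries, depth and group, so a small difference holds no more than a like pattern in 6 libraries.

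Other genes of the same pathways were read from 8 lists. In muscle, 25 of their 124 tested genes were called, where 15.3% of all genes were. The lists too were chosen with earlier results of these data known, so nothing is read from that count. Of 17 tested satellite cell surface and quiescence genes, 3 fell, none rose and 14 did not pass, with a median log2 fold change of -0.32. Cd34, a surface sialomucin of quiescent satellite cells and also of endothelium and fibroblasts, had 13.5, 19.7 and 10.4 CPM in TB, against 40.2, 43.2 and 45.4 CPM in CON (-1.56, SE 0.30, adjusted p = 0.0163 by edgeR). Heyl, a Notch target gene, fell by 1.39 (SE 0.29, adjusted p = 0.0209), and Tenm4, a teneurin, fell by 2.02 (SE 0.55, adjusted p = 0.0408), both as log2 fold changes. Of 26 tested Notch pathway genes, 3 fell, none rose and 23 did not pass, with a median of -0.11. Besides Heyl these were Hes1, another target, with 4.56, 7.0 and 15.8 CPM in TB, against 27.3, 33.0 and 30.1 CPM in CON (-1.73, SE 0.43, adjusted p = 0.0329), and Dll1, a ligand (-1.41, SE 0.37, adjusted p = 0.0371). The receptor Notch3 and these 3 genes were all lower in every TB library than in any CON library.

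Of 28 partners and inhibitors of the myogenic factors, 1 rose, 4 fell and 23 did not pass, with a median of 0.08. Mef2c, which acts with the myogenic factors on fibre genes, had 55.8, 149 and 142 CPM in TB, against 356, 365 and 378 CPM in CON (-1.67, SE 0.38, adjusted p = 0.0260 by edgeR). Bhlhe41, a repressor of the same helix-loop-helix class, fell by 2.19 (SE 0.39, adjusted p = 0.0141), and Pitx3, a homeobox factor, rose by 1.35 (SE 0.36, adjusted p = 0.0382). Of 18 tested fusion and developing fibre genes, 2 rose, 5 fell and 11 did not pass, with a median of -0.84. Mustn1, a small nuclear protein of muscle, had 1321, 389 and 466 CPM in TB, against 48.2, 62.5 and 70.7 CPM in CON (3.58, SE 0.51, adjusted p = 0.00796). Jam3, a junction protein (-1.72, SE 0.30, adjusted p = 0.0130), and Cdon, a cell surface receptor that promotes Myod1 activity (-1.49, SE 0.30, adjusted p = 0.0185), were lower.

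Of 18 tested denervation and activity genes, 4 rose, 2 fell and 12 did not pass, with a median of 0.30. The 3 with the smallest p, all higher, were Gadd45a, a stress gene (3.08, SE 0.39, adjusted p = 0.00636 by edgeR), Ankrd1, a titin-binding repeat protein (3.72, SE 0.62, adjusted p = 0.0121), and Fbxo32, the ubiquitin ligase atrogin-1 (3.0, SE 0.52, adjusted p = 0.0130). The 2 genes that fell were Lrp4 and Hdac9, so the list did not move in 1 direction. Fbxo32 had 2145, 602 and 856 CPM in TB, against 194, 150 and 105 CPM in CON, with TB library 2 the lowest of its group as for Runx1. For Ankrd1 the lowest of the group was TB library 3, at 18.7 CPM. Of the 5 tested genes of the Runx family and its partners, other than Runx1, 0 passed by edgeR, DESeq2 or limma-voom, and 0 had an unadjusted p below 0.05, with a median of -0.34. Of 10 tested proliferation genes, 1 fell, Ccnd1, cyclin D1 (-2.13, SE 0.36, adjusted p = 0.0128), and 9 did not pass, with a median of -0.06. Of 6 cell cycle inhibitors, with a median of 0.33, 5 did not pass and 1 rose, Cdkn1a, the inhibitor p21, with 361, 55.3 and 478 CPM in TB, against 24.5, 29.2 and 40.3 CPM in CON (3.25, SE 0.67, adjusted p = 0.0194). Without CON library 1, 2 or 3, 4, 2 and 1 of the genes of the 8 lists were called, and of the 16 list genes named here with muscle values 1, Gadd45a, kept its call under all alternatives.

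**Figure D4:**
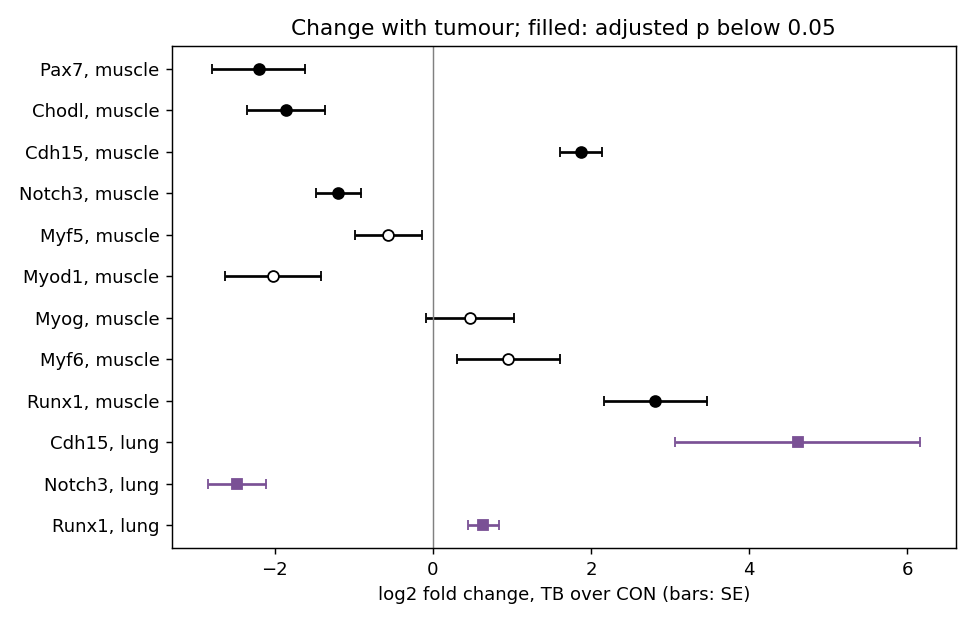
Log2 fold changes of TB over CON, with bars of 1 SE, for the 9 members tested in gastrocnemius (circles) and the 3 tested in lung (squares); filled symbols passed an adjusted p of 0.05. Values in gastrocnemius lie between -2.20 for Pax7 and 2.81 for Runx1.

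Markers of other cells were read beside these results in muscle. The 10 skeletal myofibre markers, all detected, summed to 68913 to 131491 CPM in TB and 99209 to 112498 CPM in CON. By edgeR 0 of the 10 were called (2 at an unadjusted p below 0.05) and by DESeq2 3. The 6 endothelial markers summed to 97.2 to 160 CPM in TB and 109 to 176 CPM in CON, with 1 called, Kdr, lower. The 9 leukocyte markers summed to 18.5 to 42.4 CPM in TB and 18.7 to 23.6 CPM in CON, with Cd68, S100a8 and S100a9 higher and Cd3e lower. Ptprc, the pan-leukocyte gene, had 0.994, 1.67 and 0.425 CPM in TB, against 1.42, 1.41 and 1.75 CPM in CON. Cd68 had 28.6, 2.32 and 7.26 CPM in TB, against 1.72, 2.16 and 2.43 CPM in CON. Leukocytes are known to express Runx1, and their part in its muscle value was not tested. The 6 fibroblast markers summed to 418 to 1029 CPM in TB and 598 to 1235 CPM in CON, with 3 lower, Col1a1 the most (-5.12, SE 0.55, adjusted p = 0.00496 by edgeR). The 5 Schwann cell markers summed to 45.7 to 184 CPM in TB and 39.4 to 385 CPM in CON, with 0 called by edgeR (1 at an unadjusted p below 0.05) and 1 by DESeq2. In TB and in CON alike, library 3 had the highest endothelial, fibroblast and Schwann cell sums of its group. Of the heart muscle markers, summed at 10.9 to 31.5 CPM in TB and 81.6 to 97.0 CPM in CON, Myl7 was at 0, and most of the sum in CON was Actc1, also a gene of developing skeletal fibres, at 2.41 to 17.0 CPM in TB and 73.8 to 89.0 CPM in CON. Lung epithelium markers summed to at most 3.78 CPM in TB and 0.390 CPM in CON, and Sftpc, their defining gene, was at 0 in all 6. The part of these cell types in the members' values was not tested.

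Lung received the injected cells. Lung epithelium markers, 6 of 6 detected, summed to 550 to 1896 CPM in TB and 39824 to 41299 CPM in CON, and heart muscle markers to 87.3 to 373 CPM in TB and 262 to 675 CPM in CON. In lung, 7 of the 10 members did not pass the filter. Summed over libraries, Pax7 had 0 counts in TB and 5 in CON, Myf5 had 1 in TB and 2 in CON, Myf6 had 0 in TB and 1 in CON, Myod1 had 0 in TB and 2 in CON, and Myog had 0 in both groups. Chodl had 0, 1, 4, 0 and 0 counts in the TB libraries and 8, 5 and 9 in the CON libraries, and Pax3 had 10, 0, 3, 1 and 0 in TB and 1, 1 and 0 in CON. A count of 0 allows up to 3 counts, 0.0491 to 0.0626 CPM of the total counts of these libraries, without TMM scaling. Pax7 and the 4 myogenic factors were at or near that limit in lung. Pax3 in TB library 1 and Chodl in the CON libraries lay above it, at low counts. The 3 members tested were all called, 2 higher and 1 lower, where 59.7% of 19300 genes were called, 30.4% higher and 29.3% lower. Cdh15 reached the level of the filter in 3 TB libraries and 0 CON libraries, so it entered the test only through the group where it was high, and nothing is read from the count. Groups did not overlap for 2 of the 3, against 63.0% of all genes tested (30.9% with TB higher and 32.1% with TB lower).

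Notch3 had 10.4, 15.4, 12.7, 32.4 and 10.8 CPM in the TB lung libraries, against 76.2, 98.6 and 98.3 CPM in the CON lung libraries. Every TB library lay below every CON library, and TB library 4 stood above the other TB libraries. Means were 16.4 ± 9.17 CPM in TB (SD, n = 5) and 91.1 ± 12.9 CPM in CON (SD, n = 3), a log2 fold change of -2.48 (SE 0.37, adjusted p = 0.000416 by edgeR, over all genes). Of 26 Notch pathway genes tested in lung, 15 fell, 4 rose and 7 did not pass, with a median of -0.72 against 0.07 over all genes. Hey1, a Notch target, fell by 4.66 (SE 0.26, adjusted p = 2.6e-06) and Mfng, a sugar transferase that modifies Notch, fell by 3.56 (SE 0.16, adjusted p = 1.1e-06). Endothelial markers summed to 105 to 135 CPM in TB and 2421 to 2588 CPM in CON, 6 of 6 lower, and pericyte and smooth muscle markers to 182 to 436 CPM in TB and 497 to 657 CPM in CON, 5 of 9 lower and 1 higher. The part of those cells in the Notch3 and Notch pathway values was not tested.

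Runx1 had 101, 126, 92.0, 139 and 161 CPM in the TB lung libraries, against 77.8, 80.9 and 80.0 CPM in the CON lung libraries. Every TB library lay above CON. Means were 124 ± 28.1 CPM in TB (SD, n = 5) and 79.6 ± 1.57 CPM in CON (SD, n = 3), a log2 fold change of 0.64 (SE 0.20, adjusted p = 0.0203 by edgeR, over all genes). In TPM the groups overlapped, at 21.1 to 42.0 TPM in TB and 27.1 to 27.4 TPM in CON, and limma on log2(TPM + 1) gave 0.12 (adjusted p = 0.690). The call was also lost in the fit of all 14 libraries (adjusted p = 0.268) and without CON library 1, 2 or 3 (0.0605, 0.0662 and 0.0688). The mean transcript length was 5275, 4499, 5141, 3625 and 4419 bases in TB and 4454, 4390 and 4373 bases in CON. Of the 6 Runx family genes and partners, 2 rose, 2 fell and 2 did not pass, the co-repressor genes Cbfa2t3 (-5.11, SE 0.33, adjusted p = 5.3e-06) and Runx1t1 (-4.17, SE 0.39, adjusted p = 3.6e-05) being lower. Leukocyte markers, of cells that are known to express Runx1, summed to 155 to 201 CPM in TB and 266 to 364 CPM in CON, with 4 of 9 lower, and their part in the Runx1 value was not tested.

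Cdh15 had 0.0491, 2.0, 6.30, 0.166 and 0.783 CPM in the TB lung libraries, against 0.0488, 0.101 and 0.0726 CPM in the CON lung libraries. These are 3, 101, 370, 8 and 32 counts in TB and 3, 6 and 4 counts in CON. TB library 1 was at the CON level, and TB library 3 held most of the counts. Means were 1.86 ± 2.60 CPM in TB (SD, n = 5) and 0.0741 ± 0.0261 CPM in CON (SD, n = 3), a log2 fold change of 4.61 (SE 1.55, adjusted p = 0.0282 by edgeR, over all genes). Because the gene passed the filter only through TB libraries 2, 3 and 5, this value describes those libraries and the p is no independent evidence of a difference. Without TB library 2, 3 or 5 it was not tested, and without library 3 the TB mean was 0.751 ± 0.896 CPM (SD, n = 4), 10.1 times the CON mean. The call was lost without CON library 1, 2 or 3 (adjusted p = 0.0928, 0.0754 and 0.0859), by limma-voom (0.160) and by limma on log2(TPM + 1) (0.216). Skeletal myofibre markers were low in these libraries, at 1.91 to 4.03 CPM in TB and 30.0 to 35.8 CPM in CON as a sum of 10 genes, with Myh2, Myh4 and Pvalb at 0 in TB, and Myog, Myod1 and Pax7 were at 0 in TB too. All 17 proliferation genes rose in lung, with a median of 3.17, among them Cdk1 (4.30, SE 0.35, adjusted p = 1.7e-05) and Ccnb1 (4.10, SE 0.31, adjusted p = 1.3e-05).

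**Figure D5:**
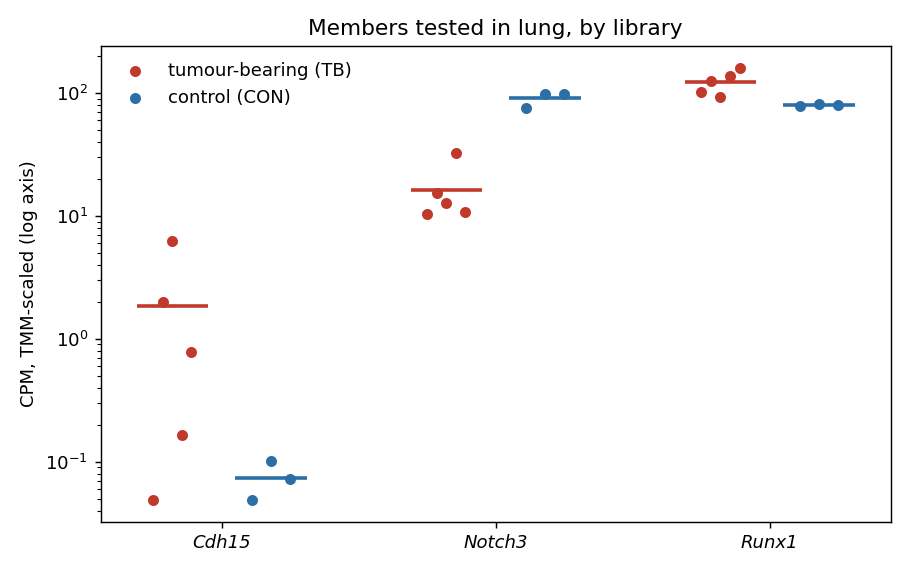
Each point is 1 lung library, in CPM after TMM scaling on a log axis, with TB left of CON for the 3 members tested, libraries in order of number left to right, and a bar at each group's mean. The TB points of Notch3 lie below those of CON, those of Runx1 lie above them, and those of Cdh15 are spread over 0.0491 to 6.30 CPM and overlap CON at their low end.

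Whether the change differs between muscle and lung was tested as an interaction in 1 fit of all 14 libraries, as the muscle change minus the lung change. It can be read for the 3 members tested in both tissues, and 1 of them was called, where 35.6% of 19834 genes were, 19.0% with a positive and 16.6% with a negative difference. Runx1 rose more in muscle than in lung, with a difference of 2.16 in log2 fold change (SE 0.63, adjusted p = 0.0162 by edgeR). For Notch3 the difference was 1.3 (SE 0.49, adjusted p = 0.0507) and for Cdh15 it was -2.75 (SE 1.54, adjusted p = 0.181). The Runx1 call was lost without muscle TB library 1 (adjusted p = 0.0594), by limma-voom (0.0822) and on log2(TPM + 1) (0.0836). Notch3 passed without muscle CON library 3 (0.0453), without lung TB library 4 (0.00128), by limma-voom (0.0262), on log2(TPM + 1) (0.000647) and over genes with a mean of at least 1 CPM (0.0493).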

How the data were processed

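RNA libraries of gastrocnemius and lung were made with the MGIEasy RNA Directional kit and read at 100 bases, per the labels. The submitters' processing notes name Trim Galore, STAR 2.7.9a and RSEM 1.3.3, while tool settings, counting strand and genome build were not given in the sources used, so reads of antisense or overlapping genes cannot be told apart. For each gene the authors deposited an expected count, which RSEM estimates and which need not be whole (6.28% to 11.9% of values per library had decimals), TPM, and the mean transcript length. Total counts per library were 32476194 to 44169410 in muscle and 47947363 to 61087315 in lung. No 2 replicates agreed within sampling noise (chi-square per degree of freedom 19.5 to 437), and none was treated as a duplicate.

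Expected counts were rounded, and edgeR 4.0.16 under R 4.3.3 fitted the tissues separately (TMM, filterByExpr, glmQLFit and the two-sided glmQLFTest). The Benjamini-Hochberg adjustment covered all genes tested, at a threshold of 0.05. The SE is the absolute log2 fold change over the square root of F. Alternatives were RLE and upper-quartile scaling, DESeq2 1.42.0, limma-voom and limma (3.58.1) on log2(TPM + 1) with a pseudocount of 1, all genes unfiltered, a filter at a mean of 1 CPM, a joint fit of the 14 libraries, the replicate number as a block, and each library left out. For the named list genes these alternatives were added after the data were seen. On log2(TPM + 1), the pseudocount shrinks the log2 fold change of genes near or below 1 TPM. A further check on simulated counts with known changes was run.

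The members, the 8 pathway lists and the 8 marker lists were chosen with earlier results of these data known. Named are all members, and from each pathway list up to 3 genes with the smallest p in muscle that passed, and 2 in lung for the Notch, Runx family and proliferation lists. Lrp4 and Hdac9 are named in addition, for their direction only. A table of mouse identifiers gave symbols for 52083 of 55416 genes. Promoters came from RefSeq (GRCm38.p6) and Runx1 transcripts from GENCODE. Protein sequences were not used here, and 1 gene with a pattern like that of a member is not reported here. The deviations of same-numbered libraries correlated at r = -0.046 to 0.366 over 3 muscle pairs and at -0.00083 to 0.0577 over 3 lung pairs, not all above 0.1, so the numbers were not taken to pair samples.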

Additional observations from a re-analysis of the deposited data

Results flagged for a closer look

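In lung TB library 4, Notch3 stood at 32.4 CPM, far from the 10.4 to 15.4 CPM of the other TB lung libraries. Myf5 in lung TB library 5 stood apart at 0.0245 CPM, which is 1 count where the other TB lung libraries had 0. With the others at 0 a single count must stand apart, so nothing is read from it. Of 6 member groups examined this way these were the 2 that stood apart, and for groups that are not mostly 0 chance gives about 1 in 20. The change of Runx1 in TB differed between muscle and lung, with an interaction of 2.16 on the log2 scale.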

How the results depend on the processing

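Over the members and the named list genes, 466 values under alternatives kept their direction and their side of the threshold, 104 lost the call, 13 gained it and 2 reversed: Myog in muscle without TB library 1 (-0.46, in a range of -0.46 to 0.88 with each library left out), and the Cdh15 interaction on log2(TPM + 1) (1.12). Notch3 in lung kept its call in all 17 alternatives. In muscle 5 members were called (2 higher, 3 lower). Limma on log2(TPM + 1) called 0 (0 higher, 0 lower; 5 had an unadjusted p below 0.05), limma-voom and the fit of all 14 libraries each called 5 (1 higher, 4 lower), and leaving out a library gave 0 to 6 members, 0 to 2 higher and 0 to 4 lower. Without CON library 1, 2 or 3 the members called were 1, 0 and 0, and without TB library 1, 2 or 3 they were 2, 6 and 2. Over all genes tested in muscle, 2196 were called, against 3657 by DESeq2, 415 on log2(TPM + 1), 4031 with no filter, 3459 in the fit of all 14 libraries and 106 to 4513 with a library left out. Over the 138 pathway genes, 25 were called in muscle, against 38 by DESeq2, 10 on log2(TPM + 1), 42 with no filter and 1 to 43 with a library left out. Over the 10 members, 3 were called in lung (2 higher, 1 lower), against 1 on log2(TPM + 1) (0 higher, 1 lower), 5 with no filter (2 higher, 3 lower), 2 by limma-voom (1 higher, 1 lower), 4 in the fit of all 14 libraries (1 higher, 3 lower) and 1 to 3 with a library left out (0 to 2 higher), where Cdh15 was not tested without TB library 2, 3 or 5. For the interaction, 1 of all members tested was called, against 4 on log2(TPM + 1), of which 1, Notch3, is among the 3 members tested in both tissues, 2 with the filter at a mean of 1 CPM, and 0 to 2 with a library left out. Upper-quartile scaling moved the median log2 fold change of all muscle genes to -0.25. Leaving out a library leaves fewer samples; beyond that the cause was not tested. With the replicate block, where numbers were not shown to pair samples (4 of 6 muscle and 2 of 6 lung libraries correlated best with their own number), 3303 muscle genes, 6 muscle members (Myod1 added, adjusted p = 0.0107) and 2 lung members (1 higher, 1 lower) were called, and Runx1 in lung was 0.41 (adjusted p = 0.0890). Lung TB libraries 4 and 5 have no CON library of the same number, so with the block the lung changes rest on libraries 1 to 3 of each group. Those left without a partner had the most Runx1 of the TB lung libraries, 139 and 161 CPM. Members with few counts (Pax3 in muscle, 7 members in lung) are limited by depth.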
